A study of Mus musculus with 18 samples.

Results

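The genes described here are 9 interferon-stimulated genes, namely Isg15, Ifit1, Ifit2, Ifit3, Irf7, Oas1a, Oasl2, Stat2 and Usp18, chosen by symbol out of the 19057 genes in an RNA-seq table of mouse liver. All 9 symbols were found in the table. Livers of male ICR mice, an outbred strain, were taken at 10 weeks of age, and the table holds 18 libraries in 6 groups with 3 libraries each. Con mice received a regular diet and saline. HS mice received a high-fat diet and 1 injection of streptozotocin (STZ), a compound toxic to insulin-producing beta cells. Mice of the A10-FMT and Con-FMT groups were likewise given the high-fat diet and STZ, and in addition were inoculated by mouth with small-intestinal microbiota of donor mice. The A10-FMT donors had been dosed with 10 mg/kg of alginate oligosaccharide (AOS), a sugar chain derived from the alginate of brown algae, and the Con-FMT donors with water. The luminal content of each donor group was pooled, so each of these groups represents 1 pool of donor material. The A10 group (10 mg/kg AOS) and the HS+A10 group (high-fat diet, STZ and 10 mg/kg AOS) are known from the sample labels alone, and their dosing schedule is not given in the sources used here.

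Interferons are secreted signals, and those of type I are released by cells after sensing foreign or misplaced nucleic acids. Type I interferons bind the receptor Ifnar1/Ifnar2, the kinases Jak1 and Tyk2 then act on Stat2, which joins Irf9 in a complex that binds the interferon-stimulated response element (ISRE) in front of target genes. In liver, hepatocytes, Kupffer cells (the resident macrophages) and sinusoidal endothelial cells can all respond, and many targets restrict viruses, whereas others, such as Usp18, limit the response itself.

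The ISRE is the letter pattern bound by the complex of Stat2, so the stretches that carry it are shown first. The searched core was GAAA, any 2 bases, GAAA, on both strands, in the 250 bases before each RefSeq start in the GRCm38.p6 assembly. Of the 9 genes, 8 had a promoter in that table, with 9 promoters among them because Ifit2 has 2, and Usp18 had none. The core was found for Isg15, Ifit1, Ifit3, Oas1a and Stat2 and was not found for Ifit2, Irf7 and Oasl2. It was thus present in 5 of 9 promoters (55.6%), against 978 of 32851 promoters of all genes (2.98%). It was not particular to the 9 genes. Of the gene lists counted below, targets of interferon gamma held it in 42.9% of promoters and other targets of type I interferon in 20.5%. Matches are given below in capitals with flanking bases in lower case, 5′ to 3′ on the strand of the gene. Where the match lies on the opposite strand, the capitals read TTTC.
Isg15, chr4:156200855-156200916, minus strand: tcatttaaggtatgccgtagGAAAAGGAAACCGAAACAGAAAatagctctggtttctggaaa
Ifit1, chr19:34640765-34640833, plus strand: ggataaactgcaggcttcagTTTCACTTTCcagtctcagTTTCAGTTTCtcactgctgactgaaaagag
Ifit3, chr19:34583353-34583436, plus strand: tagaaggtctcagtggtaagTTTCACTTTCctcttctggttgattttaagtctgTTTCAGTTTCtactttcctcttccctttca
Oas1a, chr5:120907526-120907565, minus strand: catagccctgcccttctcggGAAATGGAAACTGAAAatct
Stat2, chr10:128270256-128270305, plus strand: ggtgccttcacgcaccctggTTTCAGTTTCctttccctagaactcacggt
Isg15 holds 3 overlapping copies between 57 and 78 bases before its start. Oas1a holds 2 overlapping copies that end 5 bases before its start, whereas the 2 copies of Ifit1 and the 2 copies of Ifit3 stand apart. The single copy of Stat2 lies farther out, between 213 and 222 bases before the start. A letter match is not a binding site, and binding was not measured in these livers.

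The 9 genes lie on 6 chromosomes in GRCm38. Their positions come from another annotation than the RefSeq starts used for the promoters. Starts can differ between them, as for Stat2 and Ifit1, so the distances above do not follow from these positions. Ifit2 (chr19:34550694-34576419), Ifit3 (chr19:34583531-34588731) and Ifit1 (chr19:34640871-34650009) lie in this order on the plus strand. Oas1a (chr5:120896256-120907521, minus) and Oasl2 (chr5:114896936-114912234, plus) share chromosome 5. The others are Isg15 (chr4:156199424-156200818, minus), Usp18 (chr6:121245906-121270917, plus), Irf7 (chr7:141262706-141266481, minus) and Stat2 (chr10:128270559-128292849, plus). Some of their reads may belong to other genes. Ifit3 is 97.8% identical to Ifit3b over 1700 of the 1745 bases of its transcript, and Oas1a is 97.5% identical to Oas1g over 1860 of 1885 bases. The authors' counting could therefore have split reads between them, and the levels of Ifit3 and Oas1a are uncertain to that extent. Irf7 overlaps Phrf1, and Usp18 overlaps the noncoding Gm44148, each on the opposite strand. No source states that strand was kept, so reads of the overlapping parts cannot be told apart.

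Levels are RPKM, read numbers corrected for the length of the gene and the total reads of the library, so that levels of different genes can be compared. The sum of RPKM in a library ranged from 692818 to 806937, and the depth of the libraries, estimated from the smallest steps of 14 genes, between 0.949 and 1.044 of their mean, with the number of reads unknown. Hepatocyte markers summed to between 44508 and 69595 RPKM, as the label liver implies. Some libraries stood apart. Con-FMT replicate 3 held 19755 RPKM of 15 pancreatic acinar genes, against 14.15 to 50.37 in the other 17 libraries. Con replicate 3 lay between Con replicates 1 and 2 for 97.86% of the 140 genes in which those differed by over 1 on the log2 scale. A10 replicate 3 likewise lay between the other A10 libraries for 95.56% of 135 genes, whereas the range was 54.67% to 74.34% for the libraries of the other groups. Whether these libraries are independent of the other libraries of their group was not tested, and results on Con and A10 are also given without both. The labels do not say that each library is a separate animal, so p-values measure the spread between libraries.

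The 9 genes differed widely in level. Averaged over all 18 libraries, Irf7 (23.5 RPKM), Stat2 (15.0) and Isg15 (13.5) were the most abundant. Usp18 (4.36), Ifit3 (4.08), Oas1a (3.81), Oasl2 (2.23) and Ifit1 (1.99) followed, and Ifit2 (0.721) lay under the 1 RPKM needed for testing. The tests thus cover 8 of the 9 genes. Each change is given on the log2(RPKM + 1) scale, which understates the change of genes of low level, with its standard error (SE) and with a p from limma adjusted over all 10204 tested genes. The threshold for a call was an adjusted p under 0.05. Over the 6 groups together, limma's F test called Stat2 (adjusted p = 0.00203), Usp18 (0.0211), Isg15 (0.0448) and Ifit3 (0.0490). The share called among all tested genes was 56.1%, so 4 of 8 is no more than the background. Ifit3 and Isg15 were lost from this test under several other settings, given in the closing section.

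**Figure D1:**
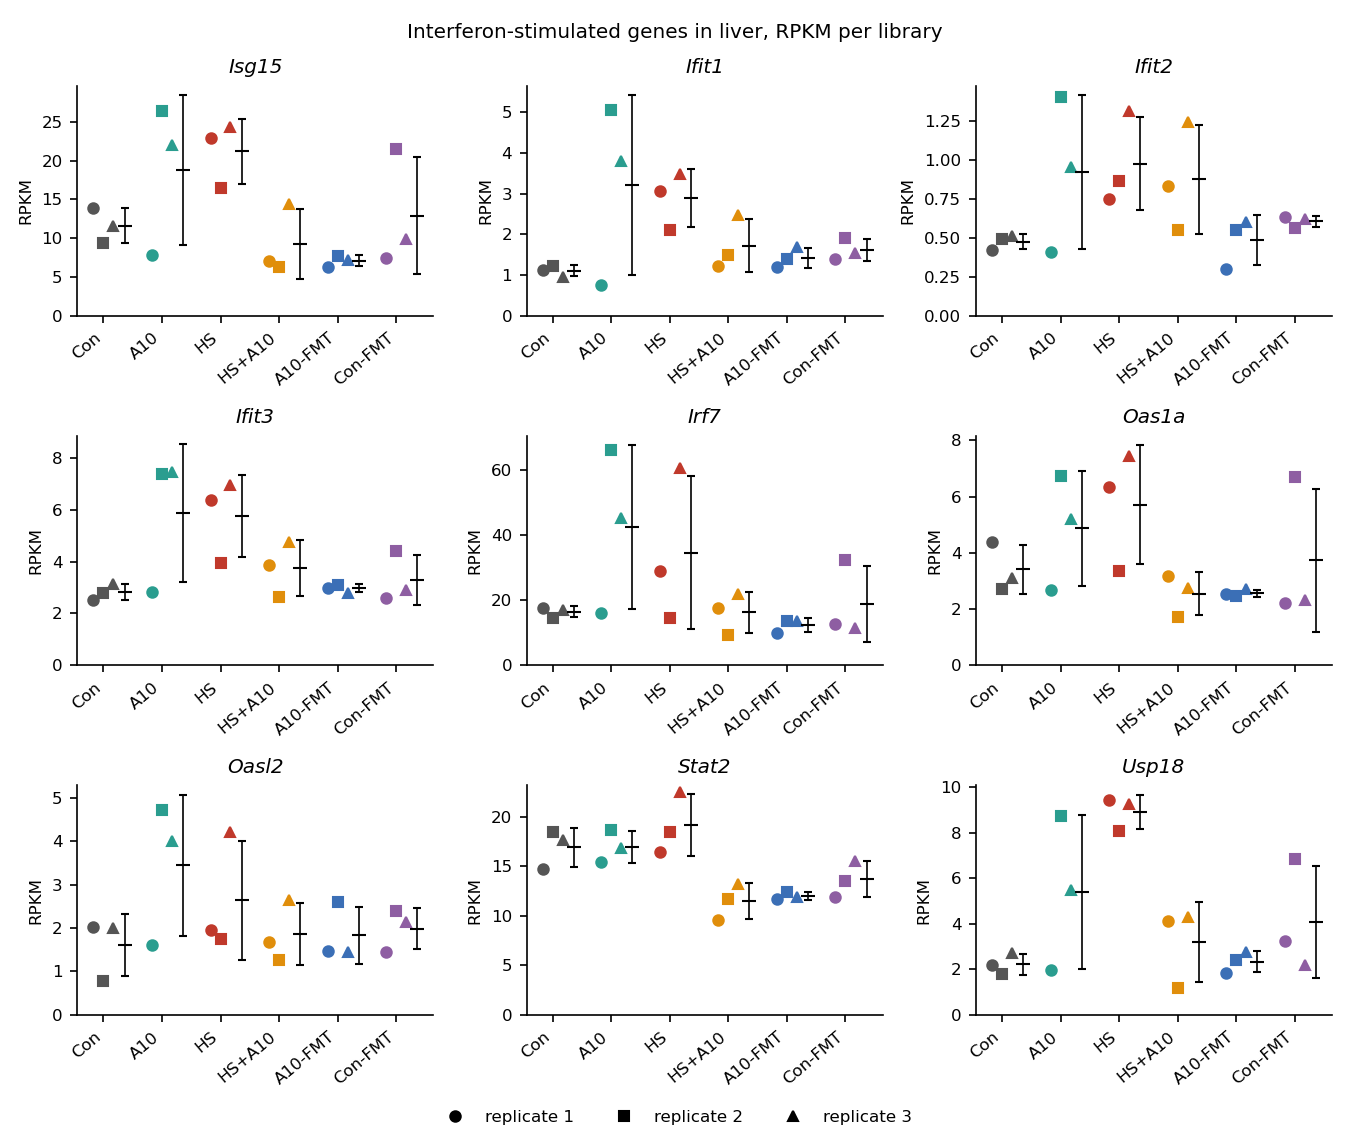
RPKM of the 9 interferon-stimulated genes in each of the 18 libraries by group, with replicates 1, 2 and 3 as circles, squares and triangles and the group mean ± SD as a black bar (n = 3). HS libraries of Usp18 (8.07 to 9.44 RPKM) lie above every Con library (1.78 to 2.71), and A10 replicate 1 is the lowest A10 library in all 9 panels.

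Usp18 and Isg15 belong to 1 protein modification system. Isg15 is a ubiquitin-like protein that is attached to other proteins, and Usp18 is the protease that removes it and, separately, blocks signalling at the receptor chain Ifnar2. Usp18 was at 2.17, 1.78 and 2.71 RPKM in Con replicates 1, 2 and 3, and at 9.44, 8.07 and 9.25 in HS. Its HS libraries differed little among themselves and did not overlap with Con. The mean in HS (8.92 ± 0.742, SD, n = 3) was 4.02-fold that of Con (2.22 ± 0.467), and Usp18 rose by 1.63 (SE 0.40, adjusted p = 0.0144, limma). Whether more cells of a type or more RNA per cell carried a transcript cannot be told apart in whole liver. In A10-FMT it was at 1.85, 2.40 and 2.76 RPKM, close to Con and below every HS library. The mean in HS was 3.82-fold that in A10-FMT, and Usp18 fell by 1.58 (SE 0.40, adjusted p = 0.0130, limma). Both calls on Usp18 held with each of the 6 compared libraries left out in turn, with adjusted p up to 0.0462 and 0.0387. Without Con replicate 3 and A10 replicate 3 the change between HS and Con was 1.74 (adjusted p = 0.0462, limma).

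In the other groups Usp18 was more variable. It was at 3.24, 6.85 and 2.17 RPKM in Con-FMT and at 4.14, 1.16 and 4.29 in HS+A10. Both groups lay below HS in every library, but neither difference passed the test in limma (Con-FMT minus HS -1.07, SE 0.40, adjusted p = 0.0668, and HS+A10 minus HS -1.35, SE 0.40, adjusted p = 0.0544). The A10 libraries were spread from the level of Con to that of HS, at 1.97, 8.72 and 5.48 RPKM.

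Isg15 was at 13.90, 9.34 and 11.55 RPKM in Con and at 22.91, 16.45 and 24.31 in HS. The groups did not overlap, but the change of 0.82 (SE 0.40) did not pass the test (adjusted p = 0.162, limma). A10-FMT had 6.29, 7.70 and 7.24 RPKM, the tightest and lowest of the 6 groups, below Con as well as HS. HS was 3.00-fold A10-FMT, and Isg15 fell by 1.45 (SE 0.40, adjusted p = 0.0192, limma). This call was lost when all libraries were scaled to 1 median (adjusted p = 0.0690) or quantile-normalized (0.0641), and without HS replicate 3 (0.0626) or A10-FMT replicate 3 (0.0533). HS+A10 was at 7.05, 6.24 and 14.41 RPKM, below each HS library, with a change of -1.19 (SE 0.40) that did not pass (adjusted p = 0.0820, limma) but passed without HS+A10 replicate 3 (0.0491). Con-FMT (7.42, 21.49 and 9.86) and A10 (7.88, 26.39 and 22.06) each spanned most of the range of the gene.

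Stat2 and Irf7 are transcription factors of the pathway. Stat2 is the signalling subunit particular to the response to type I and type III interferons, and Irf7 drives the production of interferon alpha and is itself induced by interferon. Stat2 was the gene whose variation lay most between groups, with 77.3% of its sum of squares, against 32.7% to 60.5% for the other 8. It was at 14.72, 18.43 and 17.66 RPKM in Con, at 16.41, 18.51 and 22.55 in HS and at 15.39, 18.66 and 16.81 in A10. These 3 groups overlapped, and the difference between HS and Con was 0.16 (SE 0.13, adjusted p = 0.394, limma), close to the median of all genes in that comparison (0.141). The other groups were lower. Stat2 was at 11.68, 12.44 and 11.95 RPKM in A10-FMT, at 11.92, 13.57 and 15.56 in Con-FMT and at 9.62, 11.74 and 13.22 in HS+A10, all below the lowest HS library. Against HS it fell by 0.62 in A10-FMT (SE 0.13, adjusted p = 0.00507), by 0.45 in Con-FMT (adjusted p = 0.0208) and by 0.69 in HS+A10 (adjusted p = 0.00819, limma for each). Stat2 was the 1 gene of the 9 called in all 3 of these comparisons, which share the HS libraries. The call in Con-FMT was lost under median scaling (adjusted p = 0.0741) and quantile normalization (0.0563), and in a fit of the 2 groups alone (0.0969). It was also lost without Con-FMT replicate 1 (0.0864), Con-FMT replicate 2 (0.0531) or HS replicate 3 (0.0929). Without Con-FMT replicate 3, the library with pancreatic RNA, the change was -0.54 (adjusted p = 0.0141). The call in HS+A10 was lost in a fit of the 2 groups alone (0.0757) and without HS+A10 replicate 1 (0.0520). The call in A10-FMT held under each of these settings, with adjusted p up to 0.0244 with a library left out.

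On the RPKM scale Irf7 had the largest SD of the 9 genes in each group but Con, up to 25.1 in A10. It was at 17.66, 14.57 and 17.11 RPKM in Con, and at 28.90, 14.52 and 60.65 in HS, where replicate 2 was just below all 3 Con libraries and replicate 3 was the second highest of all libraries. A10 had 16.16, 66.15 and 45.30 RPKM. A10-FMT was at 9.92, 13.73 and 13.68, HS+A10 at 17.74, 9.18 and 21.81 and Con-FMT at 12.75, 32.46 and 11.36. All 3 A10-FMT libraries lay below every HS library, with a change of -1.20 (SE 0.52) that did not pass the test (adjusted p = 0.104, limma). Without HS replicate 2 the change was -1.69 and passed (adjusted p = 0.0461), and without HS replicate 3 it was -0.69 (adjusted p = 0.369).

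Ifit1, Ifit2 and Ifit3 encode proteins that bind foreign RNA and hinder its translation. Ifit1 was at 1.12, 1.23 and 0.96 RPKM in Con and at 3.07, 2.10 and 3.48 in HS, without overlap, 2.61-fold on the RPKM scale. Ifit3 was at 2.52, 2.78 and 3.13 RPKM in Con and at 6.38, 3.95 and 6.95 in HS, again without overlap and 2.05-fold. Neither passed the test between HS and Con (Ifit1 0.87, SE 0.32, adjusted p = 0.0697, and Ifit3 0.80, SE 0.27, adjusted p = 0.0505, limma). In a fit of the 12 libraries of Con, HS, A10-FMT and Con-FMT, both were called (adjusted p = 0.00637 and 0.0237, limma). That fit leaves out the A10 and HS+A10 groups, which were variable in these genes. The changes stay the same and the SE falls to 0.14 and 0.18, so the calls rest on that choice of groups. Over all genes, that fit called 996 in place of 1809. Ifit3 was called also with a pseudocount of 0.1 and without HS replicate 2. With other libraries left out, its adjusted p in limma reached 0.150.

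In A10-FMT, Ifit1 was at 1.20, 1.39 and 1.68 RPKM and Ifit3 at 3.00, 3.11 and 2.80, below every HS library. Their changes of -0.67 and -0.74 were called in the fit of 12 libraries (adjusted p = 0.0132 and 0.0232, limma) but not in that of all 18 (0.135 and 0.0578). Con-FMT had 1.40, 1.91 and 1.53 RPKM of Ifit1 and 2.61, 4.41 and 2.90 of Ifit3, with changes against HS of -0.56 and -0.64, also called in the fit of 12 libraries (0.0210 and 0.0326) but not in that of all 18 (0.222 and 0.0949). Without HS replicate 2, Ifit3 was called in both comparisons (adjusted p = 0.0391 against A10-FMT and 0.0497 against Con-FMT, limma). With other libraries left out, its adjusted p in limma reached 0.172 and 0.252. The groups with AOS itself were more scattered, with 0.76, 5.05 and 3.80 RPKM of Ifit1 and 2.81, 7.39 and 7.46 of Ifit3 in A10, and 1.21, 1.49 and 2.47 of Ifit1 and 3.85, 2.64 and 4.77 of Ifit3 in HS+A10.

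Ifit2 differed in the same directions at a lower level. It was at 0.42, 0.49 and 0.51 RPKM in Con, at 0.75, 0.86 and 1.31 in HS and at 0.30, 0.55 and 0.60 in A10-FMT. The HS libraries were above all of Con and of A10-FMT. A10 had 0.41, 1.40 and 0.95 RPKM, HS+A10 had 0.83, 0.55 and 1.24, and Con-FMT had 0.63, 0.56 and 0.62. Without the filter on low values, its change was 0.41 between HS and Con (adjusted p = 0.143) and -0.41 between A10-FMT and HS (0.132, limma).

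Oas1a belongs to the family of enzymes that make the 2-5A second messenger, which activates RNase L, whereas Oasl2 is a family member with a ubiquitin-like end. Oas1a was at 4.38, 2.73 and 3.12 RPKM in Con and at 6.33, 3.35 and 7.46 in HS, with overlap through HS replicate 2. It was at 2.53, 2.45 and 2.70 RPKM in A10-FMT and at 3.19, 1.70 and 2.74 in HS+A10, below HS in every library, with changes of -0.86 and -0.89 (SE 0.33 for both) that did not pass (adjusted p = 0.0728 and 0.114, limma). It was at 2.69, 6.74 and 5.21 RPKM in A10 and at 2.2, 6.68 and 2.32 in Con-FMT, where replicate 2 alone was in the range of HS. Oasl2 separated the groups least. It was at 2.03, 0.79 and 2.00 RPKM in Con, and at 1.95, 1.75 and 4.21 in HS. A10-FMT had 1.47, 2.59 and 1.44 RPKM, Con-FMT had 1.45, 2.38 and 2.13, and these 4 groups overlapped. The highest library was A10 replicate 2, with 1.60, 4.72 and 4.0 RPKM in A10, and HS+A10 had 1.67, 1.26 and 2.65. Its changes ranged from -0.32 to 0.73 over the 6 comparisons, with adjusted p of at least 0.314.

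Compared group by group, the effect of diet and STZ was the first question. Diet and STZ were given together, so their parts cannot be told apart. Between HS and Con, the mean of each of the 9 genes was higher in HS, and in 5 of 9 (Isg15, Ifit1, Ifit2, Ifit3 and Usp18) the lowest HS library was above the highest Con library. Among all 10204 tested genes, 36.8% did not overlap. Of the 8 tested genes 1 was called, a share no higher than that among all genes, where 17.7% were called, 1618 higher and 191 lower. The median change of the 8 genes was 0.81 against 0.14 for all tested genes. With all libraries scaled to 1 median, the median of all genes moved from 0.141 to -0.015 and the calls to 398 higher and 486 lower. Under that scaling Usp18 was still called (1.48, adjusted p = 0.0422, limma), 7 of the 8 genes were still higher in HS, and Stat2 turned to -0.014. Without Con replicate 1, 847 of all genes were called in place of 1809.

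The second question was whether microbiota of AOS-dosed donors went with other levels in mice on the diet with STZ. Between A10-FMT and HS, the mean of all 9 genes was lower in A10-FMT, and in 8 of 9, all but Oasl2, every A10-FMT library was below every HS library, against 37.4% of all genes without overlap. Isg15, Stat2 and Usp18 were called, 3 of 8, against 23.1% of all genes (213 higher and 2145 lower), and with 8 genes the difference between these shares was not tested. The median change of the 8 genes was -0.80 against -0.16 for all. Under median scaling the calls over all genes were 639 higher and 516 lower, with Stat2 (adjusted p = 0.0423) and Usp18 (0.0433, limma) among the lower ones. Without HS replicate 2, 6 were called, with Ifit3, Irf7 and Oas1a added. HS replicate 2 was the lowest HS library in 7 of the 9 genes, so leaving it out widens the difference in them by itself. Without HS replicate 3 or without A10-FMT replicate 3, 2 were called, Stat2 and Usp18. Without A10-FMT replicate 3, 1297 of all genes were called in place of 2358. A10-FMT also had the smallest SD of the 6 groups for Isg15, Ifit3, Oas1a, Stat2 and Usp18, with 0.719 RPKM for Isg15 against 2.28 to 9.68 in the other groups.

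The same comparison for microbiota of control donors gave smaller changes. Between Con-FMT and HS, the mean of all 9 genes was lower in Con-FMT, 4 of 9 (Ifit1, Ifit2, Stat2 and Usp18) did not overlap, against 35% of all genes, and Stat2 was called, 1 of 8, no larger a share than the 23.6% of all genes. In the fit of 12 libraries Ifit1, Ifit3, Stat2 and Usp18 were called, 4 of 8, against 1849 of all 10159 genes tested in that fit. The difference between these shares was not tested. The median change was -0.61 against -0.12 for all genes. Con-FMT replicate 2 was the highest of its group in 7 of the 9 genes. Without it, Oas1a (-0.99, adjusted p = 0.0362) and Usp18 (-1.43, adjusted p = 0.0292, limma) were called and Stat2 was not. Without Con-FMT replicate 3, Stat2 was again the 1 gene called, and without Con-FMT replicate 1 none was called.

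A10-FMT and Con-FMT were also compared directly. Each group received 1 pool of donor material, so the donors' dosing and the pool cannot be told apart in this comparison. None of the 8 genes was called, against 18.8% of all genes, although 9 of 9 means were lower in A10-FMT. None had an unadjusted p under 0.05 in limma, against 32.5% of all genes, and the libraries of the groups overlapped for all 9 genes, against 31.5% of all genes without overlap. The largest difference was that of Isg15, -0.66 with a 95% interval from -1.51 to 0.20 (adjusted p = 0.278, limma), followed by Usp18, -0.51 with an interval from -1.37 to 0.35. Both intervals include 0, and that of Isg15 also includes the change found against HS. Without Con-FMT replicate 2, Isg15 was at -0.25, Usp18 at -0.15, and Ifit3, Irf7, Oas1a and Oasl2 were higher in A10-FMT, by 0.01 to 0.13. Without Con-FMT replicate 3, none was called, Isg15 was at -0.77 and Usp18 at -0.80. Without A10-FMT replicate 2, 1178 of all genes were called in place of 1914.

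**Figure D2:**
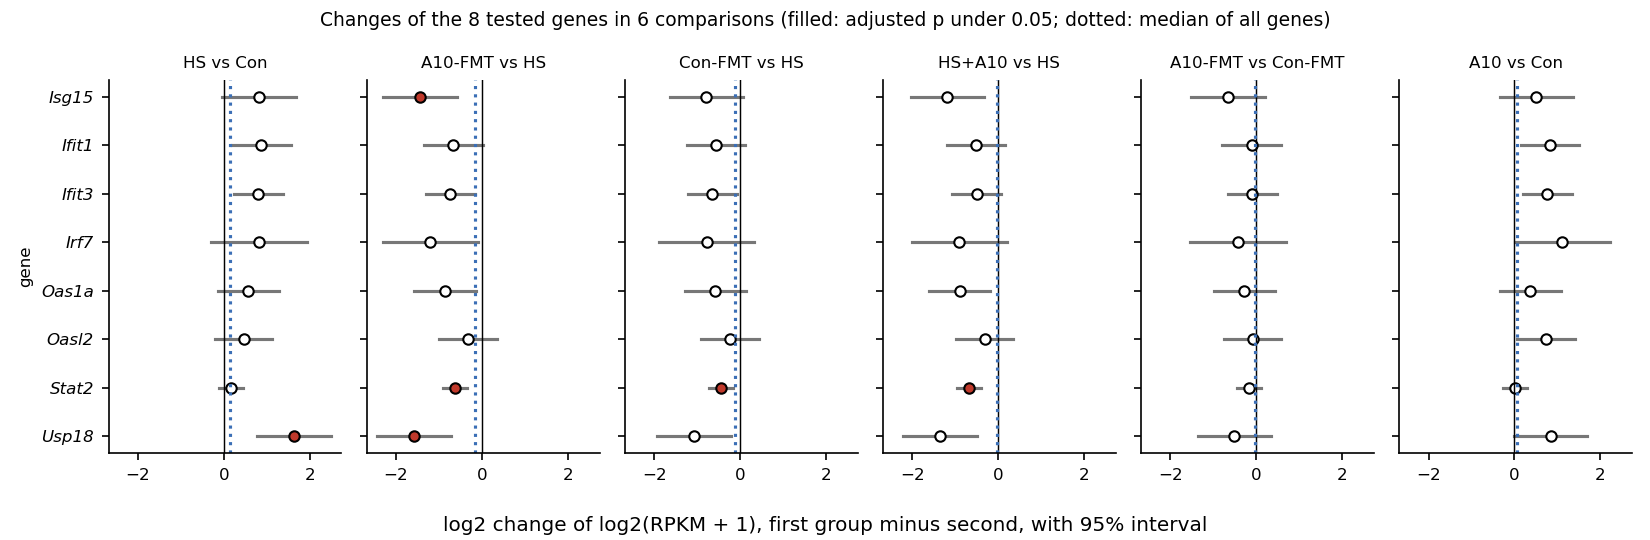
Change of the 8 tested genes in 6 comparisons on the log2(RPKM + 1) scale, first group minus second, with 95% intervals of the limma fit. Filled points passed an adjusted p of 0.05, and the dotted line marks the median change of all 10204 tested genes. Usp18 shows the largest change between HS and Con (1.63) and between A10-FMT and HS (-1.58).

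AOS itself was examined with and without the diet and STZ. In HS+A10 against HS, the mean of all 9 genes was lower with AOS, 4 of 9 (Isg15, Oas1a, Stat2 and Usp18) did not overlap, against 27.4% of all genes, and Stat2 was called, 1 of 8, against 7.32% of all genes. These 747 genes became 152 without HS+A10 replicate 1 and 1233 without HS replicate 1. In A10 against Con, the mean of all 9 genes was higher with AOS and 0 of 9 separated the groups, against 24.8% of all genes. None of the 8 was called by limma, as was true of nearly all genes (0.0686%, 7 genes, and 0 to 72 with a library left out). At an unadjusted p under 0.05, Ifit1, Ifit3, Irf7 and Oasl2 were higher in A10, 4 of 8, against 13.9% of all genes. The change of Ifit1 was 1.36 without A10 replicate 1, where it passed (adjusted p = 0.0318), and 0.47 without A10 replicate 2 (adjusted p = 0.557). Without Con replicate 3 and A10 replicate 3, no member was called and the changes of the 8 genes ranged from 0.04 to 0.99. The difference between the effects of AOS in these settings was negative for all 8 genes, from -0.69 for Stat2 to -2.19 for Usp18 (SE 0.57), and none passed (adjusted p of 0.148 for Usp18 and above for the others, limma). Among all genes, 0.0098% (1 gene) passed in this test, and 0 to 118 genes with a library left out. All 8 members had an unadjusted p under 0.05 in it, against 12.9% of all genes. The members share libraries and moved together from library to library, so their p-values are not independent. The same holds for the 4 of 8 in A10 against Con.

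The genes moved together from library to library, also inside groups. A10 replicate 1 was the lowest of its group in all 9 genes and A10 replicate 2 the highest in 8. The level in A10 replicate 1 was between 0.172 and 0.868 of the mean of the other A10 libraries, with a median of 0.349. HS replicate 3 and HS+A10 replicate 3 were each the highest of their group in 8 genes, and HS replicate 2 and HS+A10 replicate 2 each the lowest in 7. A mean z-score over the 8 tested genes, which sets each gene to mean 0 and SD 1 over the 18 libraries, was 0.96, 0.29 and 1.66 in HS and -0.64, 1.72 and 1.21 in A10. It was -0.26, -0.60 and -0.23 in Con, -0.54, -1.10 and 0.18 in HS+A10, and -0.89, -0.51 and -0.65 in A10-FMT. For Con-FMT it was -0.74, 0.61 and -0.46. Every HS library was above 0 and every Con and A10-FMT library below 0. As a description over 18 libraries, each gene's r with the mean z-score of the other members lay between 0.58 (Stat2) and 0.94 (Isg15). After the group means were removed, r was 0.80 to 0.94 for 8 genes and 0.36 for Stat2. The libraries share depth and composition, so no test is attached.

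**Figure D3:**
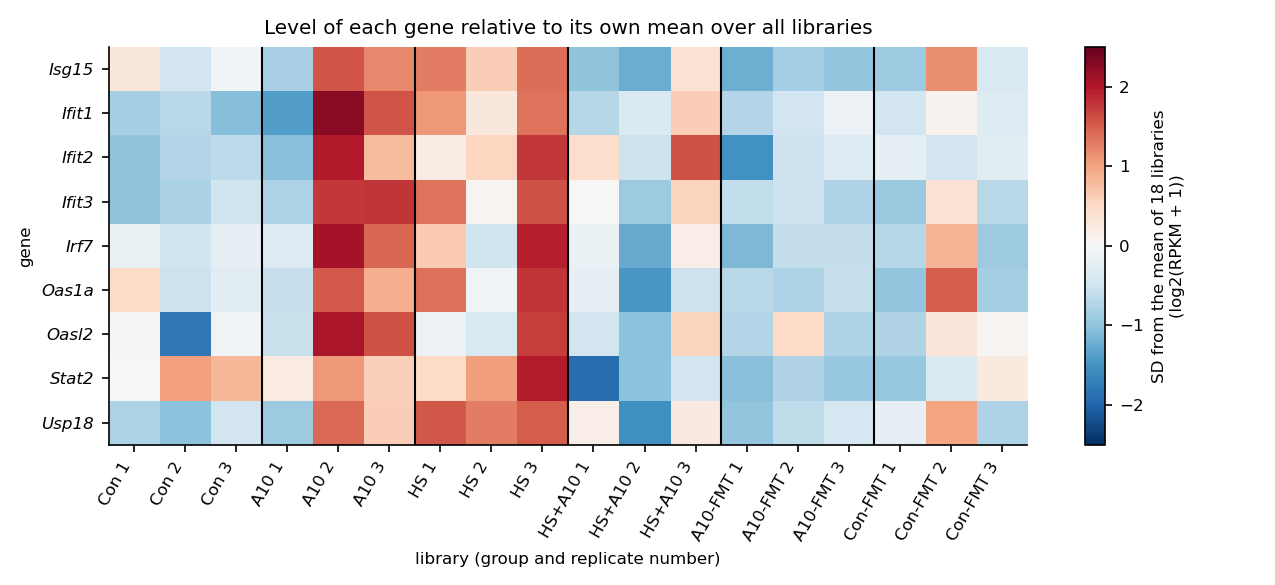
Level of the 9 genes (rows) in the 18 libraries (columns), as log2(RPKM + 1) in SD units from each gene's own mean over all libraries, with red above and blue below the mean. A10 replicates 2 and 3 and HS replicates 1 and 3 are red in most rows, whereas A10 replicate 1 and the 3 A10-FMT libraries are blue in most.

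Among all other tested genes, the 10 closest to the mean z-score were Ifi44 (r = 0.95), Rtp4 (0.92), Parp14 (0.90), Gbp10 (0.89), Dhx58 (0.89), Gbp3 (0.87), Siglec1 (0.86), Apol9b (0.86), Ifih1 (0.86) and Gm12250 (0.86), over 18 libraries. Ifi44, Rtp4 and Parp14 are further type I interferon targets, and Dhx58 and Ifih1 encode cytosolic RNA sensors. Gbp3 and Gbp10 encode guanylate-binding proteins of the response to interferon gamma, and Siglec1 encodes a macrophage surface lectin. Ifi44 repeated the pattern of the members, with 1.04, 1.14 and 1.16 RPKM in Con, 1.97, 1.54 and 3.82 in HS, 1.11, 4.54 and 4.31 in A10, and 0.62, 1.44 and 0.74 in A10-FMT.

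The other steps of the pathway were counted from lists. Of all tested genes, 17.7% were called between HS and Con, mostly higher, 23.1% between A10-FMT and HS and 23.6% between Con-FMT and HS, mostly lower. Under median scaling the calls over all genes were less one-sided in all 3, with 858 higher and 1240 lower in the last. Between A10-FMT and Con-FMT 18.8% of all tested genes were called, between HS+A10 and HS 7.32%, and between A10 and Con 0.0686%. Of 10 listed interferon genes, Ifnk and Ifng were in the table, neither reached the 1 RPKM for testing, and their sum was at most 0.18 RPKM in any library. Of the receptor chains, Ifnar2 was the most abundant at 55.21 to 85.88 RPKM and was not called in any comparison, and Ifnar1 rose in HS by 0.29 (adjusted p = 0.0248, limma). Of 5 tested receptor chains, none other was called between HS and Con, and Il10rb, a chain shared by the receptors of type III interferon and interleukin 10, fell by 0.47 in A10-FMT (adjusted p = 0.00284) and by 0.30 in Con-FMT (adjusted p = 0.0262), both against HS.

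Of 7 tested genes of receptor signalling, 3 rose between HS and Con. These were the kinase Jak1 (0.28, adjusted p = 0.0464), Irf9, a partner of Stat2 (0.62, adjusted p = 0.0343), and the phosphatase Ptpn6 (0.38, adjusted p = 0.0121, limma for each). Irf9 was at 11.32, 11.32 and 12.94 RPKM in Con and at 17.52, 16.59 and 22.60 in HS. The groups did not overlap for Irf9, whereas they did for Stat2. In A10-FMT against HS, Irf9 fell by 0.62 (adjusted p = 0.0278) and Ptpn6 by 0.51 (adjusted p = 0.00197). In Con-FMT against HS, Ptpn6 fell as well (by 0.32, adjusted p = 0.0176). Socs3, an inhibitor of Jak kinases induced by several cytokines, rose in Con-FMT against HS by 2.35 (adjusted p = 4.11e-04) and was lower in A10-FMT than in Con-FMT (-2.11, adjusted p = 0.00102), with 16.21, 11.49 and 31.92 RPKM in Con-FMT.

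Among 12 tested genes of nucleic acid sensing, 3 rose between HS and Con. These were the RNA sensors Ddx58 (0.47, adjusted p = 0.00870) and Dhx58 (0.64, adjusted p = 0.0355) and the adaptor Ticam1 (0.63, adjusted p = 0.00609, limma). In A10-FMT against HS 6 fell, namely Ddx58, Dhx58, Ticam1, the RNA sensor Ifih1, the adaptor Myd88 and the kinase Ikbke. In Con-FMT against HS 3 fell and 1 rose, and A10-FMT was higher than Con-FMT in 2 and lower in 4. Dhx58 fell also in HS+A10 against HS (by 0.68, adjusted p = 0.0458, limma) and in Con-FMT against HS (by 0.84, adjusted p = 0.00678), and was thus called in all 4 of these comparisons, which share the HS libraries.

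Of 45 other listed targets of type I interferon, 42 were analysed and 37 tested. Between HS and Con, 9 rose and 0 fell, with a median change of 0.36 against 0.141 for all genes. Those with the smallest adjusted p were Lgals3bp (0.89, adjusted p = 0.00424), Parp9 (0.49, adjusted p = 0.00831), Tor3a (0.70, adjusted p = 0.00838), Dtx3l (0.49, adjusted p = 0.00870), Parp12 (0.47, adjusted p = 0.0125) and Rsad2 (0.81, adjusted p = 0.0259, limma for each). Rsad2 encodes viperin, an antiviral enzyme, and Parp9 and Dtx3l encode partner proteins. In A10-FMT against HS, 15 fell and 0 rose, with a median of -0.48 against -0.16, led by Helz2 (-0.84, adjusted p = 4.77e-04), Tor3a (-1.004, adjusted p = 9.24e-04) and Lgals3bp (-0.88, adjusted p = 0.00338). In Con-FMT against HS 11 fell and 0 rose (median -0.38 against -0.12), and in HS+A10 against HS 4 fell and 0 rose. A10-FMT and Con-FMT differed in 2 of the 37, both lower in A10-FMT, a smaller share than the 18.8% of all genes. These were Isg20, an RNA exonuclease (-0.89, adjusted p = 0.00729), and Bst2, the antiviral protein tetherin (-0.87, adjusted p = 0.0239). The list as a whole had a median change of 0.008 there, with 19 genes above 0 and 18 below. In A10 against Con none of the 37 was called.

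Of 24 listed targets of interferon gamma, 21 were tested. Between HS and Con 4 rose and 0 fell, namely Tap1, Psmb9, Gbp7 and Gbp2, of antigen presentation and the guanylate-binding family. This share was close to the 17.7% of all genes. Irgm1 and Ifi47 fell in A10-FMT against HS, 2 of 21, a smaller share than the 23.1% of all genes. Few were called, but most of the 21 changed in 1 direction. Between HS and Con 20 were above 0, with a median change of 0.64 against 0.141 for all genes. Between A10-FMT and HS 20 were below 0, with a median of -0.66 against -0.16. Irf8, a factor of myeloid cells, rose in Con-FMT against HS by 0.34 (adjusted p = 0.0452, limma), and Irf8 and Irgm1 were lower in A10-FMT than in Con-FMT. In HS+A10 against HS and in A10 against Con no gene of this list was called.

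Markers of Kupffer cells and macrophages moved with the members in part. The summed level of 11 markers was 131.74 to 199.02 RPKM in Con, 150.31 to 239.02 in HS, 163.70 to 226.43 in A10, 138.24 to 197.65 in HS+A10, 122.00 to 207.34 in Con-FMT and 94.00 to 115.19 in A10-FMT, and none of the 11 was at 0 in every library. In A10-FMT against HS, where Isg15, Stat2 and Usp18 were called, 8 of the 11 fell (Clec4f, Adgre1, Marco, Cd5l, C1qa, C1qb, C1qc and Csf1r), with a median change of -0.75. Clec4f, a receptor restricted to Kupffer cells, fell by 0.75 (adjusted p = 0.0101, limma). Between HS and Con, where Usp18 was called, 0 of the 11 were called, the median change was 0.12 and Clec4f changed by 0.04 (adjusted p = 0.900). In Con-FMT or HS+A10 against HS none of the 11 was called. The part of Kupffer cells in the lower levels of A10-FMT was not tested.

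Other cell types were checked in the same way. Siglech and Ccr9, defining markers of plasmacytoid dendritic cells, were at or under 0.41 and 0.09 RPKM. At these low levels Siglech was higher in A10-FMT (0.41, 0.25 and 0.23 RPKM) than in HS (0.06, 0.13 and 0.06), the reverse of Ly6d. The 5 listed markers of these cells summed to 7.28 to 40.31 RPKM in HS, 2.40 to 6.83 in Con and 3.55 to 11.17 in A10-FMT. Ly6d made up most of the sum in HS. Of the 2 tested, Ly6d rose in HS against Con (by 2.43, adjusted p = 0.0197) and fell in A10-FMT against HS (by 1.99, adjusted p = 0.0373, limma), with 38.46, 21.40 and 5.06 RPKM in HS and 5.06, 0.47 and 2.84 in Con, and the other was not called in either comparison. The markers of T and NK cells summed to at most 6.41 RPKM in any library, with none of 10 reaching the level for testing. Markers of B and plasma cells summed to at most 6.89 RPKM and those of neutrophils to at most 10.70. Both tested neutrophil genes, S100a8 and S100a9, were lower in A10-FMT than in Con-FMT (by 1.17 and 1.21). Of 6 endothelial markers, 1 rose between HS and Con and 3 fell in A10-FMT against HS. Of 7 stellate cell markers, 2 rose between HS and Con (Dcn by 0.83 and Reln by 0.60) and 1 fell in A10-FMT against HS (Dcn, by 0.48) and 2 in Con-FMT against HS (Dcn by 0.53 and Lrat by 0.35). Of 4 tested genes of erythroid cells, Hba-a1 rose by 1.71 in HS against Con and fell by 1.83 in A10-FMT against HS. In Con-FMT against HS 3 of the 4 fell, with changes of -1.86 for Hba-a1, -4.86 for Hbb-bt and -6.03 for Hbb-bs. Of 3 tested cholangiocyte markers, Sox9 fell in A10-FMT (by 0.57) and in HS+A10 (by 0.58) against HS. The part of these cells in the members' levels was not tested.

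**Figure D4:**
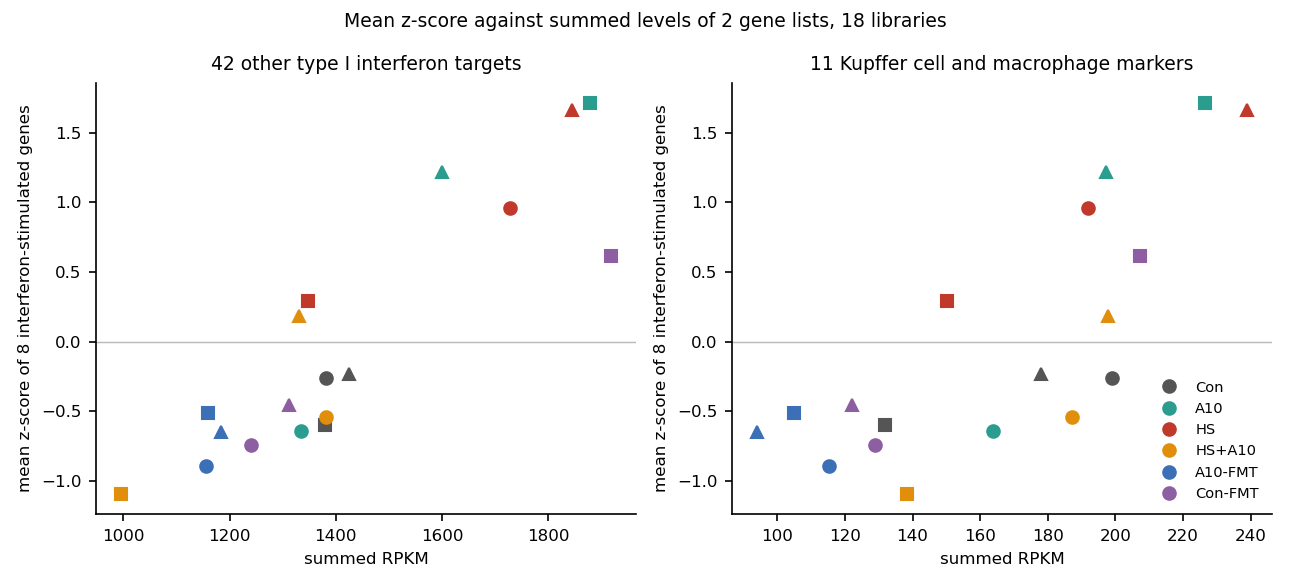
Mean z-score of the 8 tested interferon-stimulated genes (vertical axis) in each of the 18 libraries against the summed RPKM of 42 other type I interferon targets (left) and of 11 Kupffer cell and macrophage markers (right), with the same replicate symbols as in the plot of levels by group. The A10-FMT libraries lie lowest on the macrophage axis (94.00 to 115.19 RPKM), and HS replicate 3 (z-score 1.66) and A10 replicate 2 (1.72) lie highest on both plotted measures at right.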

How the data were processed

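Poly(A)-selected liver RNA was sequenced on an Illumina HiSeq system. Per the paper, the authors mapped reads to reference genes with SOAPaligner, whereas the submitters' processing notes name Bowtie 0.12.2 and mm10. The authors deposited RPKM with 2 decimals, in 1 column per sample. Here log2(RPKM + 1) was fitted with limma 3.58.1 in R 4.3.3, with 1 mean per group over all 18 libraries and a variance trend, for the 10204 genes that averaged 1 RPKM or more. Tests were two-sided, with Benjamini-Hochberg adjustment over these genes. The authors' DEGseq test was not used because it ignores the spread between replicates. The fit was run on simulated data with known changes, in which each gene varied independently. That check does not cover genes that move together or libraries that are not independent. Read numbers are unknown, so no counting interval was computed. All 9 members are named. From each pathway list at most 6 called genes per comparison are named, and in some comparisons fewer than were called or none. Where 6 of a larger number are named, they had the smallest adjusted p. Members, lists and rules were chosen with earlier results of these data known. A symbol missing from the table was not analysed here. For the receptor signalling list, 1 gene is not reported here. Positions were taken from the GRCm38 annotation, promoters from RefSeq, and identities from blastn 2.17.0. Alternatives were a pseudocount of 0.1, no filter or 5 RPKM, median and quantile scaling, no variance trend, other sets of libraries, the study's threshold, a replicate block and each library left out. Leaving out Con replicate 3 and A10 replicate 3 together was chosen after seeing the data.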

Additional observations from a re-analysis of the deposited data

How the results depend on the processing

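The number of interferon-stimulated genes called in limma depended on the settings as follows. In the main fit it was 1 for HS against Con, 3 for A10-FMT, 1 for Con-FMT and 1 for HS+A10 against HS, 4 for any difference among the 6 groups, and 0 for A10-FMT against Con-FMT, A10 against Con and the difference between the AOS effects. A pseudocount of 0.1 gave 2 for HS against Con. Without a filter on low values the count for any difference was 2. A mean of at least 5 RPKM gave 0 for HS against Con and 2 for any difference. Under it only Isg15, Irf7 and Stat2 are tested, so Usp18 and Ifit3 could not be called. Median scaling gave 0 for Con-FMT against HS and 2 for any difference, and quantile normalization 0 and 1. A fit of only the groups compared gave 4 for HS against Con, 5 for A10-FMT against HS, 0 for Con-FMT against HS and 0 for HS+A10 against HS, and a fit of the 12 libraries of 4 groups gave 3, 5 and 4 for the first 3 of these. That fit of 12 libraries called 996, 1672 and 1849 of all 10159 genes it tested in the same 3 comparisons. At the study's threshold (adjusted p of at most 0.001 and a log2 change of at least 1) none was called, so that HS against Con and A10-FMT, Con-FMT and HS+A10 against HS each had 0. Without Con replicate 3 and A10 replicate 3 the count for any difference was 2. With each library left out in turn, the counts ranged from 1 to 2 for HS against Con, 2 to 6 for A10-FMT against HS (6 without HS replicate 2), 0 to 2 for Con-FMT against HS, 0 to 2 for HS+A10 against HS, 0 to 1 for A10 against Con and for the difference between the AOS effects (Ifit1 without A10 replicate 1), and 1 to 6 for any difference (1 without HS replicate 1 or HS replicate 3, and 6 without A10 replicate 1). The cause was not tested.

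Of 901 values for single changes, 12 reversed. Stat2 turned between HS and Con under median scaling (-0.014), and between A10 and Con under median scaling (-0.073) and quantile normalization (-0.069). With libraries left out, Stat2 ranged from -0.089 to 0.067 between A10 and Con, and Oasl2 from -0.406 to 0.055 between Con-FMT and HS. Between A10-FMT and Con-FMT, Oasl2 ranged from -0.270 to 0.00899, Ifit3 from -0.211 to 0.081, Irf7 from -0.688 to 0.031 and Oas1a from -0.505 to 0.127.

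Of 45 correlations between same-numbered libraries of 2 groups, 12 were above 0.1, with a range from -0.126 to 0.262. Libraries with different numbers were not correlated, so these values cannot decide whether replicate numbers pair the samples. With a replicate block the members called were 1 for HS against Con, 3 for A10-FMT against HS, 1 for Con-FMT against HS, 1 for HS+A10 against HS and 3 for any difference. Over all genes, the calls between HS and Con were 1809 in the main fit, 884 under median scaling, 876 under quantile normalization, 702 with only the groups compared, 996 with 12 libraries, 39 at the study's threshold and 700 without Con replicate 3 and A10 replicate 3. Between A10-FMT and HS they were 2358, 1155, 1114 and 846 under the first 4 of these. With only the groups compared they were 777 against 2413 in the main fit for Con-FMT against HS, 687 against 1914 for A10-FMT against Con-FMT and 76 against 747 for HS+A10 against HS, and a mean of at least 5 RPKM gave 1307 and 1229 for Con-FMT against HS and A10-FMT against Con-FMT. Read numbers are unknown, and Ifit2 lies where few reads decide a value.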
